A study of Rattus norvegicus with 12 samples.

Results

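Of the 2 cold-inducible RNA-binding proteins CIRBP and RBM3, 1 could be identified among the 32883 Ensembl genes quantified in the rat choroid plexus. Members were taken as the identifiers that the study itself pairs with either symbol. RBM3 was paired with ENSRNOG00000005387. CIRBP was paired with no identifier in the material held here, so it is named without a value. That gap lies in the pairing and does not mean that CIRBP was not quantified or expressed. The choroid plexus, the epithelial tissue that secretes cerebrospinal fluid, came as whole tissue from 12 male Sprague-Dawley rats aged 9 weeks, with 1 library per rat. The rats lived under a 12:12-h light cycle in temperature-controlled housing and had been anesthetized with ketamine and xylazine. Sampling took place at ZT8, which is 8 h after lights on, for 6 light phase rats, and at ZT20, which is 8 h after lights off, for 6 dark phase rats. Each phase was thus sampled at 1 time, each rat was sampled once, and body temperature was not analysed here. The study's methods state that it was held constant under anesthesia during fluid collection, and do not say whether that covered the rats of these libraries.

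CIRBP and RBM3 are small proteins that bind RNA through an RNA recognition motif followed by a glycine-rich end. Both are known for transcripts that accumulate when cells are cooled mildly and decline when cells are warmed, and both have been linked to the choice of splice and polyadenylation sites and to the daily rhythm of body temperature. Rats are nocturnal, and their core temperature is normally higher at night than by day. CIRBP promoters are also known for a short element, TCCCCGCC, that responds to mild cold.

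The promoters of both genes are shown because they are the sequence from which the measured RNA is started. They were read from the RefSeq annotation of GRCr8, a later build than the Rnor_6.0 used for quantification, and only the stretch upstream of the annotated start that lies outside the gene itself is printed. This stretch is 208 bases for Rbm3 and 102 bases for Cirbp and ends short of the start. Matches nearer the start are counted below and do not appear in the print. Capitals mark TCCCCGCC, GGGCGG (the core bound by SP1) and CCAAT (bound by NF-Y), read on both strands.
Rbm3, chrX:17020655-17020862, plus strand: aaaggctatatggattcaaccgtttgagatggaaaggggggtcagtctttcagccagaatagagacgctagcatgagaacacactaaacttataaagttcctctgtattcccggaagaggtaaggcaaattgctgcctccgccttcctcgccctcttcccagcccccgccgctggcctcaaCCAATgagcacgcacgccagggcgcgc
Cirbp, chr7:10189624-10189725, minus strand: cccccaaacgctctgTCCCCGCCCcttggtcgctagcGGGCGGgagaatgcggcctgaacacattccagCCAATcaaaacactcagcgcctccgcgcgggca

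In the 250 bases before its start, Rbm3 held 1 CCAAT and 1 TGACG, the core of the cyclic AMP response element. Cirbp held TCCCCGCC once, 228 to 235 bases before its start, together with 4 copies of GGGCGG and 2 of CCAAT. On the opposite strand 1 copy of GGGCGG overlaps TCCCCGCC. Of the 33469 rat promoters of this length, 4.22% held TCCCCGCC, 30.5% GGGCGG, 34.0% CCAAT and 18.2% TGACG. Neither gene held CACGTG (the E-box of the clock, in 5.59% of promoters), TTATGNAA (the D-box read by DBP and NFIL3, in 3.28%) or GAANNTTC (the minimal pair of heat shock elements, in 7.23%). These matches describe letters in the window and no binding was measured.

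RBM3 transcripts were more abundant by day in every library. The abundance, in TPM (transcripts of each gene scaled to a fixed total per library), was 84.6, 117, 75.4, 90.3, 86.0 and 94.7 in light phase replicates 1 to 6. In dark phase replicates 1 to 6 it was 52.2, 45.3, 46.4, 49.1, 46.0 and 51.2 TPM. The phases did not overlap, and 23.2 TPM separated the lowest light library from the highest dark library. The light phase mean was 91.3 ± 14.1 TPM and the dark phase mean 48.3 ± 2.89 TPM (SD, n = 6 rats each), 1.89 times as much by day (95% interval 1.68 to 2.13, on scaled values). All 12513 genes averaging at least 1 TPM were tested together with limma on log2 of scaled TPM plus 0.5, and a positive log2 fold change means more RNA at night. The log2 fold change of RBM3 was -0.92 (standard error 0.08, 95% interval -1.09 to -0.75, limma FDR = 1.03e-05), and an exact two-sided permutation test of the scaled log2 values gave p = 0.00216, the smallest that 6 against 6 rats allow. Of all genes tested, 17.7% passed an FDR of 0.05, 8.38% towards the light phase and 9.36% towards the dark phase. The phases did not overlap in 8.86% of genes, and in 3.92% every light library lay above every dark library. Among the 1997 genes paired with a symbol like RBM3 this last share was 7.46%. Those genes were paired by their light phase level, so this set favours genes higher by day and is no neutral background for RBM3. In whole tissue, fewer cells that make RBM3 and less RBM3 RNA per cell cannot be told apart.

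**Figure D1:**
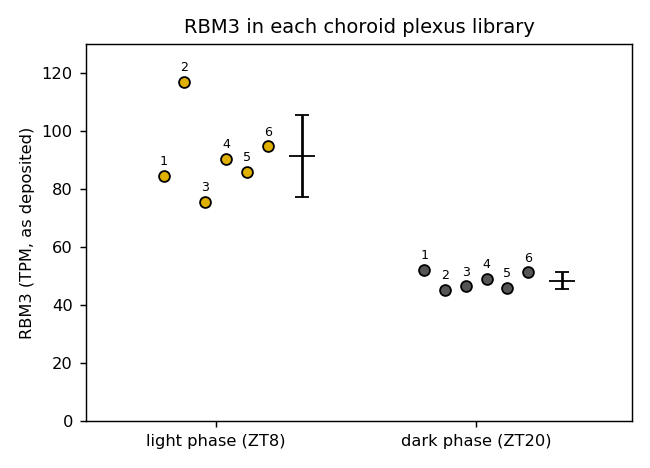
RBM3 abundance (vertical axis, TPM as deposited, from 0) in each of the 12 libraries, with the replicate number beside each point and bars giving mean and SD. The light phase libraries run from 75.4 to 117 TPM and the dark phase libraries from 45.3 to 52.2 TPM, so no library of one phase reaches the other.

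The spread of RBM3 differed in size between the phases, although this difference was not tested. The coefficient of variation was 15.4% by day and 5.98% at night, and the highest library exceeded the lowest 1.55-fold by day and 1.15-fold at night. Light phase replicate 2, at 117 TPM, stood highest. Without it the light phase mean was 86.2 ± 7.22 TPM (SD, n = 5) with a coefficient of variation of 8.37%, and the log2 fold change was -0.86. That library also held the least TTR, the transthyretin carrier that dominates choroid plexus RNA, at 253710 TPM against 286835 to 309722 TPM in the other 11 libraries. It also held the most HBB, the haemoglobin chain that marks blood, at 5535 TPM, and the most PLVAP, an endothelial marker, at 124 TPM. Scaling, which compensates in part for such a difference, gave 75.4 to 112 TPM by day and 45.4 to 51.4 TPM at night.

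Among all identifiers RBM3 ranked 1105th by mean level by day and 2106th at night, above 91.2% and 83.2% of the tested genes. Its decrease towards the dark phase was the 73rd largest of all genes tested. Among the 2048 genes averaging at least 50 TPM it was the 5th largest decrease and the 10th largest change in either direction. In the plot of level against change, RBM3 lies at the lower edge of the genes of its level. The typical called gene changed far less, with a median size of 0.28 on the log2 scale.

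**Figure D2:**
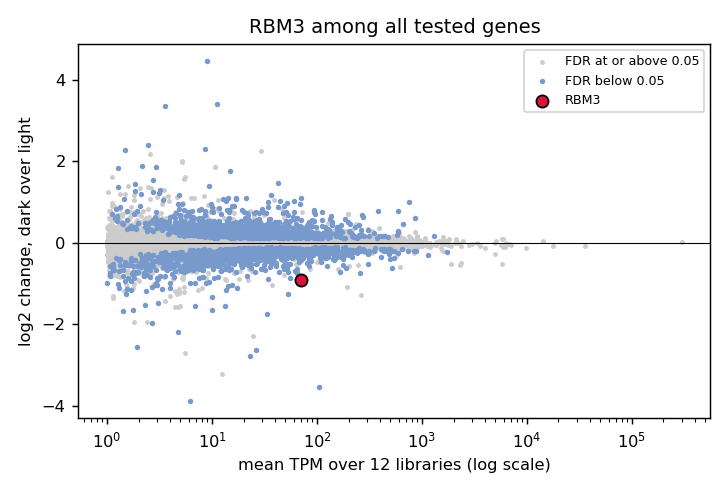
Each point is 1 of the 12513 tested genes, with mean TPM on a logarithmic horizontal axis and log2 fold change (dark over light, positive when higher in the dark phase) on the vertical axis. RBM3, at -0.92, is marked.

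The related proteins were examined as lists, with counts given only over members whose symbol was paired through the study's table of genes by level. The part held here follows the light phase level. It holds TEF, at 51.9 TPM by day and 15.1 TPM at night, and not HSPA4L, at 50.2 and 78.0 TPM. It thus favours genes higher in the light phase, and this tilt carries into the counts, medians and shares drawn from it. In that table, 23.6% of 1997 genes passed the test, 9.06% towards the dark phase and 14.6% towards the light phase, 12.4% had no overlap between phases, with a median log2 fold change of -0.04. A few further members were paired only through the study's tables of phase-dependent genes. These are left out of the list counts and medians, since that pairing itself favours genes that change, and enter only where stated. Nearly all came from 1 table held in part, which lacks DBP, TEF and RBM3 (log2 fold changes -3.53, -1.76 and -0.92). It holds BMAL1, NFIL3 and CRY1 (3.40, 2.30 and 1.76), and also RBMX (-0.35). The further members are thus tilted towards the dark phase.

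Proteins with a cold shock domain, a different fold that also binds single-stranded RNA and DNA, did not pass the test in either of the 2 measured members reported here. YBX1, which packages messenger RNA, had 180 ± 15.3 and 176 ± 6.61 TPM in light and dark phase rats (log2 fold change -0.05, 95% interval -0.14 to 0.04). For YBX3 the interval was wide, -0.33 to 0.29. Light phase replicate 2 held 95.5 TPM of it and the other light phase libraries 45.4 to 49.9 TPM, and without that library the log2 fold change moved from -0.02 to 0.13 (limma FDR = 0.197).

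The next list held RNA-binding proteins with glycine-rich or arginine-glycine-rich stretches, most of which, though not SERBP1, have an RNA recognition motif like RBM3. Of its 8 counted members reported here, 2 fell towards the dark phase, 3 rose and 3 did not pass (median log2 fold change 0.04, range -0.26 to 0.35). HNRNPA1, a splicing repressor, had 143 to 154 TPM by day (median 150) and 117 to 136 TPM at night (median 125). Its phases did not overlap (log2 fold change -0.26, standard error 0.04, limma FDR = 0.00106). HNRNPD, the AUF1 protein that binds AU-rich elements, fell from 67.5 ± 4.31 to 59.4 ± 3.56 TPM (log2 fold change -0.20, limma FDR = 0.0268), a call that was lost without light phase replicate 4, 5 or 6 and without dark phase replicate 3, 4 or 6 (FDR 0.053 to 0.0605). RBMX, an RNA-binding protein encoded on the X chromosome and paired only through the phase-dependent tables, had 14.2 ± 1.55 and 11.2 ± 0.892 TPM (log2 fold change -0.35, limma FDR = 0.00953). In the other direction, TARDBP, the TDP-43 protein that represses cryptic exons, rose from 52.8 ± 4.41 to 68.5 ± 5.81 TPM (log2 fold change 0.35, limma FDR = 0.00142). HNRNPA3 rose from 152 ± 13.0 to 179 ± 14.4 TPM (limma FDR = 0.0201). The other counted member that rose, G3BP2 of stress granules, did so by 0.16 on the log2 scale (limma FDR = 0.0427) and had an FDR of 0.0536 to 0.0901 without any 1 library other than dark phase replicate 2. TAF15, a TBP-associated factor paired only through the phase-dependent tables, had a log2 fold change of 0.40 (limma FDR = 0.0115). HNRNPA2B1, the most abundant of the class at 310 ± 18.3 and 344 ± 27.0 TPM, did not pass (log2 fold change 0.13, limma FDR = 0.104). The study's own tables of phase-dependent genes nevertheless hold it.

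**Figure D3:**
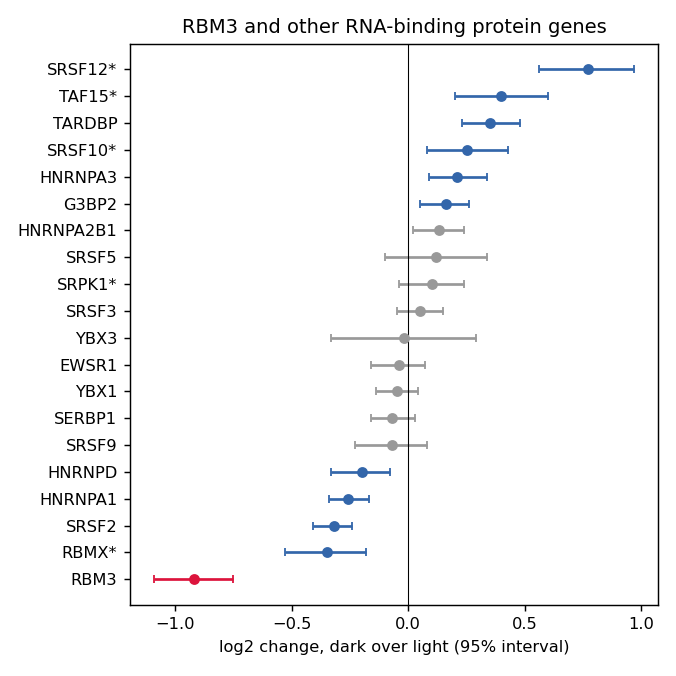
Log2 fold change (dark over light, horizontal axis) with its 95% interval for RBM3 and 19 genes of the cold shock domain, glycine-rich and SR protein lists, crimson for RBM3, blue for an FDR below 0.05 and grey otherwise. An asterisk marks a symbol paired only through the study's lists of phase-dependent genes. RBM3 lies at -0.92 and the other genes plotted lie between -0.35 and 0.77.

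The position of RBM3 among these transcripts moved with the phase. By mean TPM, a measure per transcript length, it was 8th by day and 15th at night of 20 genes, namely RBM3 and the genes reported here from the cold shock domain, glycine-rich and SR protein lists. These include the kinase SRPK1, and 5 of them (RBMX, TAF15, SRPK1, SRSF10 and SRSF12) were paired only through the phase-dependent tables. In that order, RBM3 was 6th to 8th in single libraries by day and 13th to 15th at night. In the light phase the genes next above it, SRSF2 (95.1 TPM) and SRSF5 (104 TPM), did not differ from it beyond the spread (exact sign-flip test within libraries, p = 0.531 and 0.281), while HNRNPD lay below it in 6 of 6 libraries. In the dark phase EWSR1 (54.1 TPM) lay above RBM3 in 6 of 6 libraries and SRSF10 below it in 6 of 6, and SRSF9 did not differ from it beyond the spread (exact sign-flip p = 0.281). The p of 0.0312 of each of the 3 uniform differences is the smallest that 6 libraries allow, and after adjustment over the 6 neighbour tests it was 0.0624, so no neighbour passed.

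The log2 ratio of RBM3 to each of these 19 other genes was compared between phases, a comparison added after the data had been seen. RBM3 fell relative to each of these 19, by 0.57 on the log2 scale against RBMX up to 1.68 against SRSF12 (exact permutation p = 0.00216 for each, also after Benjamini-Hochberg adjustment over 19). These 19 tests share RBM3 and are not independent, and they do not cover every RNA-binding gene of the lists.

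Of the SR proteins and their kinases, which set splice site choice, 1 of 4 counted members passed. SRSF2, an SR protein of exon definition, fell from 95.1 ± 4.66 to 76.9 ± 4.35 TPM (log2 fold change -0.32, limma FDR = 0.000162) with no overlap between phases. SRSF5, the most abundant, had 104 ± 15.7 and 114 ± 9.70 TPM (95% interval -0.10 to 0.34, limma FDR = 0.467). Through the phase-dependent tables alone, SRSF12 was measured at 2.05 ± 0.335 and 3.85 ± 0.213 TPM (log2 fold change 0.77, limma FDR = 0.000181). SRSF10 was measured in the same way and lay 0.25 higher at night on the log2 scale (limma FDR = 0.047), a call that was lost without light phase replicate 1, 4, 5 or 6 and without dark phase replicate 3, 4, 5 or 6 (FDR 0.0639 to 0.0987). The kinase SRPK1, also paired that way, lay at 0.10 and did not pass (limma FDR = 0.324). The CLK kinases, which phosphorylate SR proteins in a temperature-dependent way, had no paired symbol.

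Of the cleavage and polyadenylation machinery, 2 of 3 counted members rose towards the dark phase, both by little. PAPOLA, the poly(A) polymerase, went from 50.7 ± 4.53 to 58.6 ± 1.62 TPM (log2 fold change 0.19, limma FDR = 0.0142). PABPN1, the nuclear poly(A)-binding protein, went from 52.2 ± 2.86 to 58.4 ± 3.07 TPM (log2 fold change 0.14, limma FDR = 0.0475), and its FDR was 0.0513 to 0.0997 without any 1 library other than dark phase replicate 1. SYMPK and FIP1L1, scaffold proteins of the complex paired only through the phase-dependent tables, lay 0.26 and 0.29 higher at night on the log2 scale (limma FDR = 0.00143 and 0.00296). WDR33 and CPSF6, paired in the same way, lay 0.20 and 0.16 higher (limma FDR = 0.0143 and 0.107).

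Of genes reported to induce, import, modify or splice CIRBP or RBM3, 5 of 9 were counted, and 1 rose, 1 fell and 3 did not pass (median log2 fold change 0.01). TRPV4, a warmth-gated cation channel of the choroid plexus epithelium and a reported regulator of RBM3, was higher in the dark phase, at 74.0 to 88.3 TPM (median 77.8) against 51.8 to 68.2 TPM (median 58.0) in the light phase. It did not overlap between phases (log2 fold change 0.39, standard error 0.06, limma FDR = 0.00114). PRMT1, the methyltransferase that modifies arginines in glycine-rich ends, fell from 79.1 ± 4.42 to 69.7 ± 5.80 TPM (limma FDR = 0.0275). That call was lost without light phase replicate 5 or 6 (limma FDR = 0.0618 and 0.0588) and without dark phase replicate 3 or 4 (0.0567 and 0.0533). NTRK2, the TrkB receptor reported to induce RBM3 in neurons, had 63.2 ± 5.73 and 66.3 ± 12.6 TPM (limma FDR = 0.877), and CSNK2A1, a kinase subunit and the most abundant of this list, had 102 and 104 TPM. GSK3B, a kinase paired only through the phase-dependent tables, lay 0.20 higher at night and did not pass (limma FDR = 0.073).

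Of messenger RNAs reported to be bound or regulated by CIRBP or RBM3, neither of 2 counted members passed. RTN3, a reticulon whose translation RBM3 is reported to raise in neurons, had 153 ± 7.26 and 156 ± 9.32 TPM (95% interval -0.09 to 0.12). HIF1A, the oxygen-regulated transcription factor subunit, had 54.1 and 50.2 TPM (limma FDR = 0.132). CLOCK, a core clock transcription factor whose message CIRBP is reported to bind, was paired only through the phase-dependent tables and was higher in the dark phase, at 18.5 ± 0.908 against 10.7 ± 1.01 TPM (log2 fold change 0.75, limma FDR = 7.8e-07). TLR4, LY96 and TREM1, reported receptors of extracellular CIRBP, had no paired symbol.

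Heat shock proteins and co-chaperones, a family with heat-inducible and constitutive members, were higher in the dark phase in 7 of 12 counted members and lower in 0, with 5 that did not pass (median log2 fold change 0.29, range 0.06 to 0.79). Among all genes paired in the same way 9.06% were higher in the dark phase. HSP90AA1, the inducible HSP90, ran from 364 to 513 TPM by day (median 416) and from 656 to 816 TPM at night (median 766). Its phases did not overlap (log2 fold change 0.79, standard error 0.08, limma FDR = 4.3e-05). HSPB1, a small heat shock protein, rose from 106 ± 22.7 to 159 ± 19.7 TPM, and HSPH1, a nucleotide exchange factor of HSP70, from 77.1 ± 14.8 to 112 ± 6.92 TPM (limma FDR = 0.00582 and 0.0021). HSP90AB1, AHSA1, SERPINH1 and STIP1 were the other 4 that rose, by 0.27 to 0.47 on the log2 scale. STIP1 (limma FDR = 0.032) lost its call without light phase replicate 2, 4, 5 or 6 and without dark phase replicate 1, 4 or 6 (FDR 0.055 to 0.0708), and with a replicate block (0.0534). Over the fits without 1 library 6 to 8 members were higher in the dark phase. With the FPKM:TPM ratio of library totals as a covariate, only HSP90AA1 of the 7 passed (limma FDR = 0.0148), while the median log2 fold change of the 12 was 0.31. The abundant HSPA8, the constitutive HSP70, had 700 ± 91.1 and 790 ± 53.6 TPM and did not pass (log2 fold change 0.16, limma FDR = 0.136), nor did the mitochondrial chaperones HSPD1 and HSPE1, at 0.06 and 0.07. The study's own tables of phase-dependent genes nevertheless hold HSPA8 and HSPE1. HSPA4L, FKBP4 and HSF1, paired only through the phase-dependent tables, had log2 fold changes of 0.61, 0.63 and 0.29. Of the other 3 paired in this way, CHORDC1 lay at 0.43 (limma FDR = 0.0119), DNAJB1 at 0.25 (0.0907) and HSF2 at -0.15 (0.0769), the last 2 of which did not pass. HSPA1A and HSPA1B, the most heat-inducible members, had no paired symbol.

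**Figure D4:**
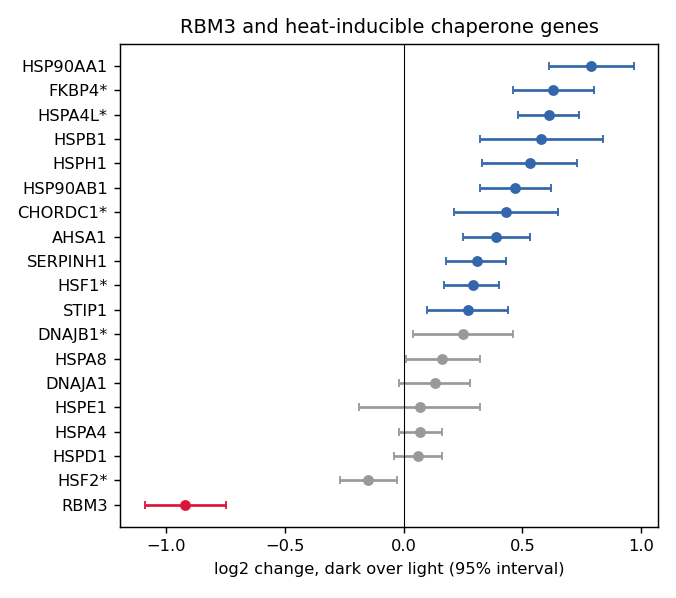
Log2 fold change (dark over light, horizontal axis) with its 95% interval for RBM3 (crimson) and the paired heat shock genes, blue for an FDR below 0.05 and grey otherwise, with an asterisk for a symbol paired only through the study's lists of phase-dependent genes. The 12 counted heat shock genes lie between 0.06 and 0.79, and RBM3 lies at -0.92.

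Of the clock genes reported here, DBP, TEF, BMAL1, NFIL3, CRY1 and NPAS2 had larger differences between phases than RBM3, and CLOCK and RORA smaller ones. DBP and TEF, PAR bZIP factors of the clock output and the 2 counted members, were higher in the light phase, DBP at 194 ± 19.7 against 16.6 ± 1.41 TPM (log2 fold change -3.53, limma FDR = 7.38e-12) and TEF at 51.9 ± 6.12 against 15.1 ± 0.870 TPM (log2 fold change -1.76, limma FDR = 3.5e-09). BMAL1, NFIL3 and CRY1, all paired only through the phase-dependent tables, had log2 fold changes of 3.40, 2.30 and 1.76. NPAS2 and RORA, paired likewise, lay at 1.39 (limma FDR = 3.27e-06) and 0.07 (0.684). PER1, PER2, PER3, CRY2, NR1D1, NR1D2, HLF and CIART had no paired symbol.

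The 5 genes whose centred log2 profile over the 12 libraries lay closest to that of RBM3 were SLC16A12, PXYLP1, TMEM86A, IFRD2 and ENSRNOG00000025231, with root mean square differences of 0.169 to 0.188 against a median of 0.502 over all tested genes. The profile of RBM3 itself has a root mean square of 0.48 about its mean. SLC16A12, a monocarboxylate transporter family member that carries creatine, fell from 80.6 ± 9.85 to 48.6 ± 3.61 TPM and so was also close to RBM3 in level. PXYLP1, a phosphatase of proteoglycan assembly, had 76.2 ± 7.59 and 47.6 ± 5.71 TPM. Since likeness over the 12 libraries includes the phase, the lower dark level of these genes follows from how they were chosen and carries no test.

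**Figure D5:**
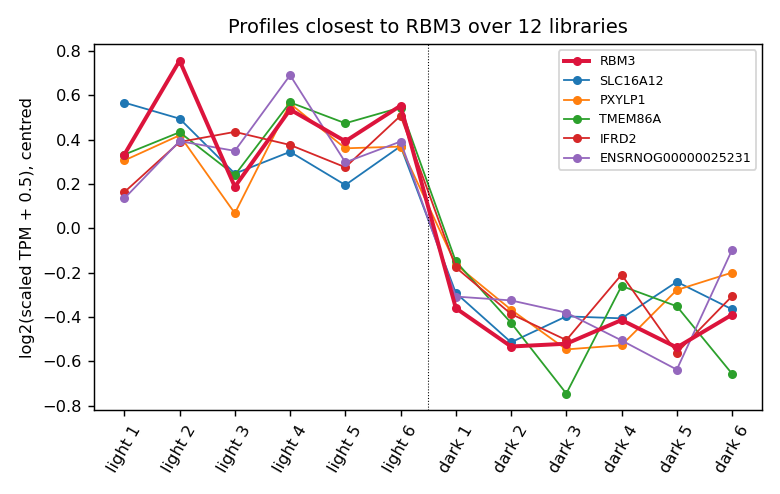
Log2 of scaled TPM plus 0.5, centred on each gene's own mean (vertical axis), in the 12 libraries (horizontal axis) for RBM3 and the 5 closest genes. Lines only join the values of 1 gene, since replicates have no order, and every gene lies above 0 in the light phase and below 0 in the dark phase.

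The choroid plexus identity of the libraries rested on 7 of 7 paired epithelial markers, whose summed level was 258610 to 309370 TPM by day and 291944 to 315148 TPM at night, nearly all of it TTR. Of these, KL, CLIC6 and OTX2 rose towards the dark phase and AQP1 fell. For other cells few markers were paired, 2 of 6 stromal (135 to 216 and 145 to 228 TPM summed), 1 of 6 endothelial (58.5 to 124 and 56.7 to 96.8 TPM), 2 of 7 macrophage (211 to 395 and 196 to 382 TPM) and 1 of 6 blood markers (1406 to 5535 and 839 to 2190 TPM), and none of these was at 0. Neural markers are not reported here. All of these ranges overlapped between phases. The macrophage sum is nearly all CD74, and its other member PTPRC, the leukocyte antigen CD45, moved the same way as RBM3, from 2.47 ± 0.373 to 1.84 ± 0.316 TPM (log2 fold change -0.36, limma FDR = 0.0483). That call was kept only without light phase replicate 4 or without dark phase replicate 4 among the fits that leave out 1 library (FDR 0.058 to 0.103 in the others). The part of these cells in the RBM3 difference was not tested. Relative depth, estimated from the smallest steps in FPKM, was 0.887 to 1.36 of the mean library by day and 0.875 to 1.08 at night. The FPKM:TPM ratio of library totals, which falls as the expressed transcripts lengthen, was 0.953 to 0.987 by day and 0.934 to 0.96 at night. With this ratio as a covariate the log2 fold change of RBM3 was -0.99 (standard error 0.13, limma FDR = 0.00168), and 2.74% of all genes and 4.21% of those paired like RBM3 were called in that fit. SRSF2, HSP90AA1 and CLOCK also passed it, while HNRNPA1, TARDBP, HNRNPA3, TRPV4 and PRMT1 did not (limma FDR = 0.129, 0.147, 0.436, 0.077 and 0.478). Their log2 fold changes in that fit were -0.19, 0.27, 0.14, 0.38 and -0.13, so that of TRPV4 was nearly the same as without the covariate (0.39). The ratio follows phase in part, so its share in these differences and that of phase cannot be fully told apart. It was not tested otherwise.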

How the data were processed

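RNA was measured in whole choroid plexus from 12 rats, with 1 library per rat and 6 rats per phase, grouped by the labelled time. The libraries were prepared with the NEB Next Ultra kit and sequenced as 150-base paired reads. The authors used STAR 2.7.9a for alignment to Rnor_6.0 and RSEM 1.3.3 for quantification, and the deposited TPM and FPKM of 32883 Ensembl genes were used as given. The DESeq2 test that the authors ran on STAR counts is not used here. Genes in the study's tables of phase-dependent genes were called by that test, and some of them did not pass the fit used here.

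The members and the gene lists were chosen with earlier results of these data known. TPM was divided by a trimmed mean of ratios to the geometric mean library, with 30% of ratios and 5% of levels trimmed at each end, and 0.5 TPM was added before the log2 transformation, which understates changes at low levels. The 12513 genes averaging at least 1 TPM were fitted with limma 3.58.1 in R 4.3.3, with phase alone, trended moderated variances and Benjamini-Hochberg adjustment at 0.05. FPKM served the depth estimate, the FPKM:TPM ratio of library totals and 1 alternative scaling. The number of reads behind a value is unknown, so no counting error is given. The depth estimate had a largest error of 0.796% on simulated libraries, and its search window was set after first outputs were seen. Those libraries held whole reads times a fixed step per gene. The deposited values need not be so regular, and the error on them is unknown. Exact tests used scipy 1.17.1, with pandas 2.3.3 and numpy 2.4.6, and figures matplotlib 3.10.9. Tested on simulated data with 200 changed genes in the dark over light comparison (12433 genes), the fit recovered 70.9% of 103 changes of 0.5 and 94.7% of 95 changes of 1 on the log2 scale, with 7 unchanged genes called.

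Symbols came only from the study's own pairings, held in part, which covered 3700 identifiers. The reference table pairs symbols with another build and with no Ensembl identifier. CIRBP could not be paired, so its planned tests and its ratio to RBM3 were not run. Genes named are RBM3, up to 3 called members of each list in each direction with the smallest p, the most abundant member, and the 5 closest profiles. HSPB1, HSPH1, YBX3, EWSR1, SRSF9, NTRK2, HIF1A and others outside this rule were added after their values were seen. The lists also held 2 RNA-binding genes and 1 marker that are not reported here and are left out of the list counts, ranks and ratios, so these cover part of each list and give RBM3 no place among all RNA-binding genes. Files were compared for copies, with 0 identical pairs. Nothing in the labels says that a replicate number joins rats of the 2 phases. Alternatives were other scalings, pseudocounts, filters, variance settings, a covariate, a replicate block and leaving out each library.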

Additional observations from a re-analysis of the deposited data

Results flagged for a closer look

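Of 160 groups of 6 libraries examined, those of every gene with values, 10 held a library far from the others by Dixon's criterion for 6 values, where about 1 in 20 (8 groups) is marked by chance. In 6 of the 10 the library was light phase replicate 2, the one with the most RBM3. There TTR was lowest at 253710 TPM, and HBB (5535 TPM), PLVAP (124 TPM), YBX3 (95.5 TPM), CRY1 (9.16 TPM) and NFIL3 (4.26 TPM) were highest, with gaps of 0.914, 0.867, 0.788, 0.91, 0.674 and 0.672 of the group's range to the nearest library. HBB marks blood and PLVAP endothelium, and their part in the RBM3 level of that library was not tested. Without it the log2 fold change of RBM3 was -0.86. In light phase replicate 3, CSTF3 was 70.0 TPM and HSPB1 was 148 TPM. PLVAP was 96.8 TPM in dark phase replicate 5 and BMAL1 was 24.1 TPM in dark phase replicate 6. The gap of RBM3 in light phase replicate 2, 0.535 of the range, did not pass the criterion.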

How the results depend on the processing

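RBM3 was lower in the dark phase and passed the FDR of 0.05 in all 23 alternatives, with log2 fold changes of -0.99 to -0.88 over the 11 that keep every library and of -0.97 to -0.86 when 1 library was left out. The 2219 genes called became 343 when the ratio of FPKM to TPM totals was a covariate and 1704 to 2278 without 1 library, and the 19 counted list members called became 4 and 14 to 19. The share of called genes that were higher in the dark phase was 52.8%, against 59.3% for unscaled TPM and 42.1% for unscaled FPKM. The number of RNA-binding genes whose change differed from that of RBM3 was 19 of 19 reported, also without 1 library and with a replicate block. These tests all share RBM3 and its own separation of the phases, so the repeats are not separate support. Replicate numbers do not pair the samples, with same-number correlations of deviations of -0.107 to 0.0469, and a replicate block gave -0.92 for RBM3 (limma FDR = 0.0005) with 1591 genes called. Of all tested genes 17.7% were called, and 2.74% with the ratio covariate. The 80 genes with values include some picked for likeness to RBM3 or paired only through the phase-dependent tables. Their share called is therefore raised by the choice. Of these 80 genes 46 were called, and 28 of them lost the call with the ratio covariate. That ratio had a median of 0.971 by day and 0.944 at night, so it follows phase in part. The covariate widened the standard error of RBM3 from 0.08 to 0.13. A call lost in that fit thus need not mean a smaller change. Under other alternatives 9 lost it somewhere, HNRNPD, PABPN1, PAPOLA, PRMT1, SRSF10, G3BP2, STIP1, CLIC6 and PTPRC, PAPOLA and CLIC6 only with the block (limma FDR = 0.0557 and 0.0543). The sign turned somewhere for 14 genes, none of them called. Values near 0 turned sign for CSNK2A1 (0.01) with unscaled FPKM and with sample weights (-0.01 each) and with the ratio covariate (-0.00164), and it ranged from -0.02 to 0.03 without 1 library. RTN3 (0.01) turned to -0.01 with unscaled FPKM and ranged from -0.01 to 0.04 without 1 library. The cause was not tested. The alternatives planned for CIRBP, for the ratio of RBM3 to CIRBP and for their relation within a phase were not run. Without read counts, depth limits low genes to an unknown extent.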

Other observations

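WDR13, which lies next to Rbm3 on the X chromosome in the GRCr8 annotation, had 22.6 ± 2.07 TPM by day and 20.7 ± 2.95 TPM at night (SD, n = 6). Its log2 fold change was -0.15 (95% interval -0.35 to 0.04, limma FDR = 0.27), so the interval does not reach that of RBM3, -1.09 to -0.75. WDR13 was paired only through the study's tables of phase-dependent genes, so the authors' own test called it although the fit here did not. Within a phase, the level of RBM3 was set against the mean log2 level of the 12 counted heat shock genes, a relation chosen after the data had been seen and computed for both phases. In the light phase Pearson's r was -0.80 (exact permutation p = 0.025, adjusted 0.05) and Spearman's rho was -0.83 (exact permutation p = 0.0583, adjusted 0.117) over 6 rats. Without the 2 rats farthest from the median heat shock level, r was -0.32 over the 4 rats left. Leaving them out also narrows the range, so this drop cannot show whether the relation rests on those rats. The relation stays uncertain. In the dark phase r was 0.60 (exact permutation p = 0.231) and rho was 0.66 (exact permutation p = 0.175).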
